A study of Homo sapiens with 6 samples.

Results

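The ZFP36 family of mRNA decay factors (ZFP36, ZFP36L1 and ZFP36L2) and a set of short-lived feedback genes (DUSP1, DUSP2 and IER3) were followed in T-24 cells, an established adherent epithelial line of bladder cancer origin. The 6 genes were taken by gene symbol from the deposited tables, which hold 38557 symbols. The tested group was treated for 48 h with 1 µM CCT068127, which blocks the cell cycle kinase CDK2 and the transcriptional kinase CDK9 (3 libraries). The control group received DMSO, the vehicle, for 48 h (3 libraries). The labels give the DMSO cells as WT and name only the treatment for the other cells, and both groups come from the same line.

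Proteins of the ZFP36 family bind AU-rich elements in the 3′ UTRs of short-lived mRNAs through a pair of CCCH zinc fingers. They bring in the CCR4-NOT deadenylase, which shortens the poly(A) tail and starts decay. The kinase MK2, downstream of p38, phosphorylates them, and 14-3-3 proteins then hold them in a less active state. DUSP1 and DUSP2 encode phosphatases that switch off MAP kinases, and IER3 encodes an early response protein that feeds back on ERK signalling and cell survival. The mRNAs of such genes are themselves made quickly and degraded quickly, and ZFP36 is known to act on its own mRNA.

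The AU-rich heptamer preferred by the family, TATTTAT in DNA letters, is shown because all 6 genes carry it in the 3′ UTR of their principal GENCODE 29 transcript. One site per gene follows as a stretch of 29 bases on the transcript strand (GRCh38), with the heptamer in capitals.
ZFP36, chr19:39409181-39409209, plus strand: aatgggcccttTATTTATgacgactttat
ZFP36L1, chr14:68788336-68788364, minus strand: ttatcaaaacgTATTTATtgccaaactat
ZFP36L2, chr2:43223448-43223476, minus strand: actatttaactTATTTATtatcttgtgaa
DUSP1, chr5:172768643-172768671, minus strand: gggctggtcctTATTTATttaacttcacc
DUSP2, chr2:96143208-96143236, minus strand: ttagcactttaTATTTATacagaacattc
IER3, chr6:30743538-30743566, minus strand: aggtctcttggTATTTATtgagctttgtg

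The heptamer occurred 3 times in ZFP36 (3′ UTR of 713 bases), 3 times in ZFP36L1 (1871 bases) and 3 times in ZFP36L2 (1917 bases). It occurred 3 times in DUSP1 (672 bases), once in DUSP2 (657 bases) and 4 times in IER3 (737 bases). Among 11964 tested genes with an annotated 3′ UTR, 33.8% held at least 1 copy and 6.35% held 3 or more, and longer 3′ UTRs held more (median length 4489 bases with 3 or more copies and 752 bases with 0). The match is a description of the letters and does not show binding.

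The libraries differed widely in depth. Total counts were 5557546, 1966742 and 4657316 in CCT068127 replicates 1 to 3, and 371044040, 411097626 and 5955296 in DMSO replicates 1 to 3. Levels are given as CPM, counts scaled to a common library total, after TMM scaling, a method that sets most genes to no change between libraries, or as the authors' TPM, the transcript abundance scaled to the same total in every library, which also divides by transcript length. The epithelial keratin genes KRT7, KRT8, KRT18 and KRT19 were abundant, while CDH1, the gene of E-cadherin, stayed below 1 TPM. The epithelial marker EPCAM had 2.67 to 4.11 TPM in CCT068127 and 4.29 to 5.71 TPM in DMSO. Summed TPM of 5 leukocyte markers was 47.5 to 48.2 in CCT068127 and 9.85 to 15.5 in DMSO. The lysosomal gene CD68 alone had 40.1 to 43.3 TPM in CCT068127 and 4.93 to 9.24 TPM in DMSO. LYZ, the lysozyme gene, had 2.62 to 4.39 TPM in CCT068127 and 0.22 to 0.39 TPM in DMSO, while the monocyte marker CD14 had 0.94 to 2.79 TPM in CCT068127 and 4.37 to 5.93 TPM in DMSO. The part of these differences in the results below was not tested. PTPRC and CD3E were at 0.52 TPM or less, and 5 of 6 fibroblast markers stayed under 1 TPM with a summed level of 0.45 to 0.70 in CCT068127 and 0.62 to 1.07 in DMSO. Of 4 endothelial markers the summed level was 2.26 to 5.09 in CCT068127 and 4.66 to 5.67 in DMSO. Among them PECAM1 had 0.47 to 0.96 TPM in CCT068127 and 2.25 to 3.3 TPM in DMSO. CDH5 overlapped, with 1.3 to 4.58 TPM in CCT068127 and 1.41 to 3.3 TPM in DMSO. In bulk RNA, a change in the number of cells of a kind and a change in RNA per cell cannot be told apart.

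The 3 ZFP36 family genes did not move together. ZFP36 rose about 2-fold, ZFP36L2 fell by about the same factor, and ZFP36L1, the most abundant of them, did not pass the test. DUSP1 rose 3.90-fold and IER3 rose 5.39-fold. DUSP2 was barely detected in DMSO and remained low in CCT068127. Of the 5 genes that could be tested, 3 were called higher, against 31.9% of the 13597 genes tested, and 1 was called lower, against 32.8%. Calls in either direction made up 64.7% of all tested genes, so the number of calls among the 6 genes is near the background and only their sizes are described further. The groups did not overlap for any tested member except ZFP36L1, and 69.4% of all tested genes did not overlap either. DUSP2, which lies outside that background, did not overlap, but at 2 reads in CCT068127 replicate 2 and 1 read in DMSO replicate 3.

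**Figure D1:**
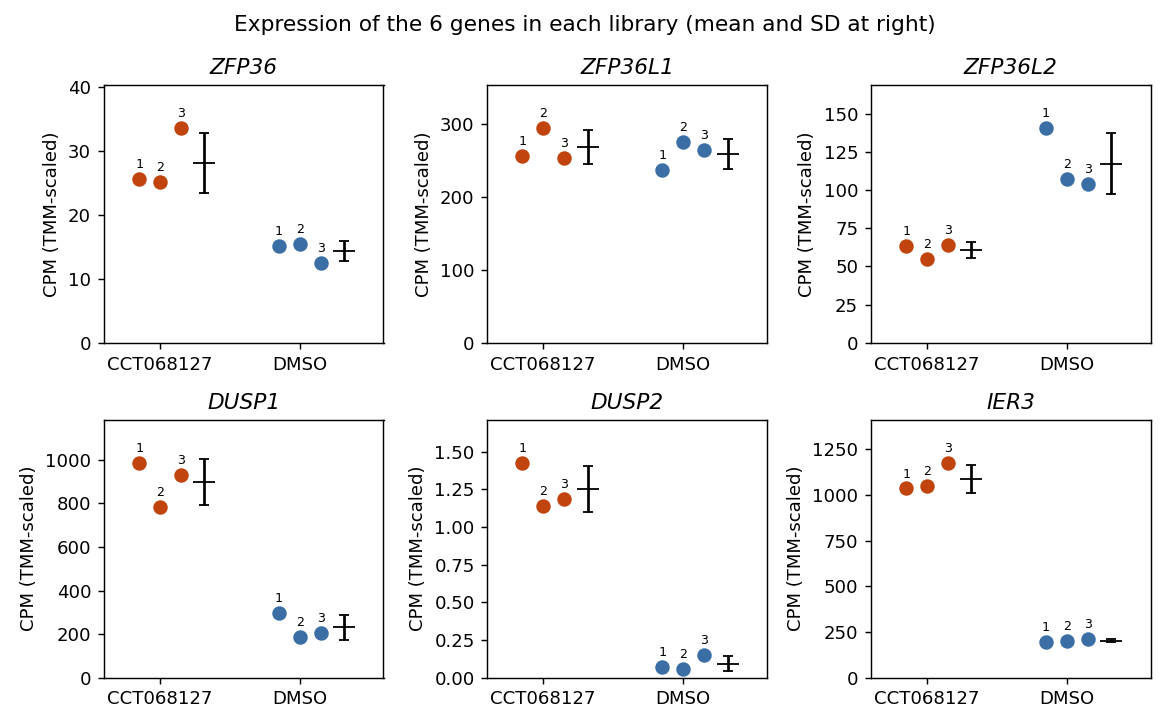
Each panel plots 1 gene, with TMM-scaled CPM on the vertical axis and the 3 CCT068127 libraries to the left of the 3 DMSO libraries (numbers are replicates, bars are mean and SD). The groups overlap for ZFP36L1, with 254 to 295 CPM in CCT068127 and 237 to 276 CPM in DMSO, and are separate in the other 5 panels.

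ZFP36 (ENSG00000128016, chromosome 19, 39406813 to 39409412, plus strand) encodes tristetraprolin, the founding member of the family. It had 25.7, 25.1 and 33.6 CPM in CCT068127 replicates 1 to 3, and 15.1, 15.5 and 12.5 CPM in DMSO replicates 1 to 3. All CCT068127 libraries lay above all DMSO libraries, with CCT068127 replicate 3 the highest. The means were 28.1 ± 4.75 CPM in CCT068127 and 14.4 ± 1.61 CPM in DMSO (SD, n = 3 each). The log2 fold change was 0.95 ± 0.15 (SE; edgeR quasi-likelihood test, Benjamini-Hochberg adjusted p = 0.00023). It had the fewest reads of the tested members, and CCT068127 replicate 2 held 44 (exact 95% Poisson interval 32 to 59.1, counting error only).

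ZFP36L1 (ENSG00000185650, chromosome 14, 68787660 to 68796253, minus strand) encodes a close paralog that also targets AU-rich mRNAs. It had 256, 295 and 254 CPM in CCT068127 replicates 1 to 3, and 237, 276 and 264 CPM in DMSO replicates 1 to 3. The ranges overlapped, and the highest value came from CCT068127 replicate 2, the shallowest library. The log2 fold change was 0.046 ± 0.10, with an approximate 95% interval from -0.16 to 0.25 (edgeR adjusted p = 0.718). This direction depends on scaling, and with library totals the log2 fold change was -0.27 (edgeR adjusted p = 0.035). On log2(TPM + 1) values it was -0.44 (limma adjusted p = 0.00533).

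ZFP36L2 (ENSG00000152518, chromosome 2, 43222402 to 43226609, minus strand) encodes the remaining paralog. It had 63.6, 54.8 and 63.9 CPM in CCT068127 replicates 1 to 3, and 140.6, 107.5 and 103.9 CPM in DMSO replicates 1 to 3. All CCT068127 libraries were below all DMSO libraries, and DMSO replicate 1 stood above the other DMSO libraries. The means were 60.8 ± 5.15 CPM in CCT068127 and 117 ± 20.2 CPM in DMSO (SD, n = 3 each). The log2 fold change was -0.94 ± 0.14 (edgeR adjusted p = 0.000153), and it was -0.81 without DMSO replicate 1.

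Because the zero line moves with the scaling, the family was also compared within each library, where scaling between libraries cancels. The count ratio of ZFP36 to ZFP36L2 was 0.405, 0.461 and 0.527 in CCT068127 replicates 1 to 3, and 0.108, 0.144 and 0.121 in DMSO replicates 1 to 3. This ratio was 3.74-fold higher in CCT068127, a difference of 1.90 on the log2 scale. The ratio of ZFP36 to ZFP36L1 was 1.89-fold higher (0.101, 0.0862 and 0.133 in CCT068127, and 0.064, 0.0561 and 0.0477 in DMSO). The ratio of ZFP36L1 to ZFP36L2 was 1.98-fold higher (4.03, 5.35 and 3.96 in CCT068127, and 1.68, 2.57 and 2.54 in DMSO). No ratio overlapped between the groups, and the exact permutation test (two-sided) returned p = 0.1 for each, which is the lowest value possible with 3 libraries per group. These are 3 ratios of 3 genes and are not independent. Among single tested genes 69.4% did not overlap, and the share among ratios of other gene pairs was not computed.

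Per transcript length, ZFP36L1 was the leading family member in every library. It made up 72.5%, 76.6% and 69.4% of the summed ZFP36 family TPM in CCT068127 replicates 1 to 3, and 62.7%, 70.6% and 71.2% in DMSO replicates 1 to 3. ZFP36 made up 13.7 ± 2.35% in CCT068127 and 6.71 ± 0.61% in DMSO (SD, n = 3 each), and ZFP36L2 made up 13.5 ± 1.63% in CCT068127 and 25.1 ± 4.45% in DMSO. ZFP36 and ZFP36L2 therefore stood at close levels in CCT068127 (25.3 ± 4.39 and 24.8 ± 1.92 TPM), while in DMSO they stood apart (18.0 ± 1.84 and 67.3 ± 11.9 TPM). The summed family level was 185 ± 11.3 TPM in CCT068127 and 268 ± 3.95 TPM in DMSO, a log2 difference of -0.53. The median gene of the filtered TPM table differed by -0.46, so most of that difference is shared with the other genes of the table.

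**Figure D2:**
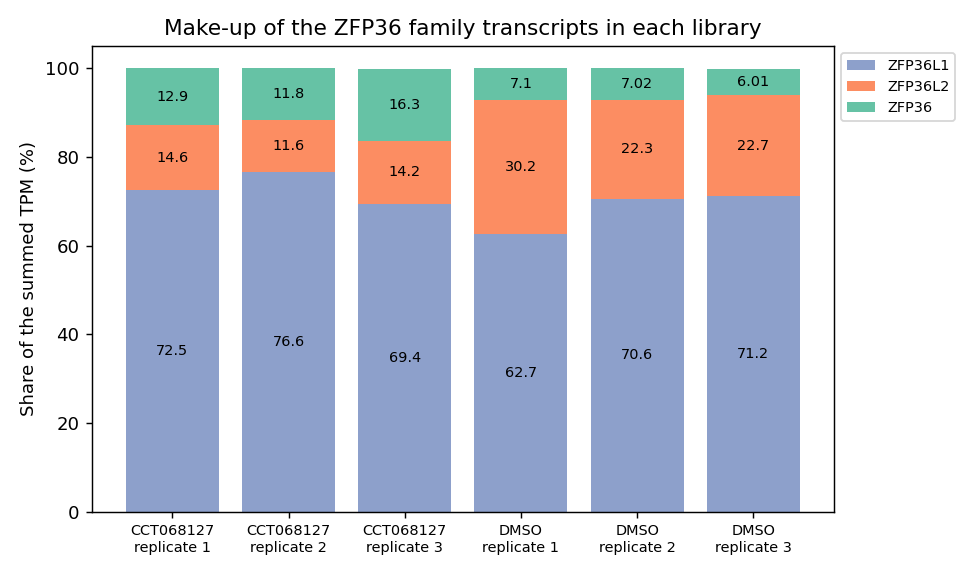
Stacked bars give the share of the summed ZFP36, ZFP36L1 and ZFP36L2 TPM (vertical axis, percent) in each of the 6 libraries. ZFP36 takes 11.8% to 16.3% in CCT068127 and 6.01% to 7.10% in DMSO, while ZFP36L2 takes 11.6% to 14.6% in CCT068127 and 22.3% to 30.2% in DMSO.

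DUSP1 (ENSG00000120129, chromosome 5, 172768090 to 172771195, minus strand) encodes MKP-1, a nuclear phosphatase of p38, JNK and ERK. It had 987, 782 and 930.5 CPM in CCT068127 replicates 1 to 3, and 297.4, 187.3 and 206.5 CPM in DMSO replicates 1 to 3. The groups were far apart, with DMSO replicate 1 the highest control. The log2 fold change was 1.97 ± 0.17 (edgeR adjusted p = 4.36e-06), and 9.52% of tested genes had a larger absolute fold change. The annotation places an antisense gene across DUSP1, and since no source used here states the strand setting of the counting, its reads could not be separated.

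IER3 (ENSG00000137331, chromosome 6, 30743199 to 30744554, minus strand) showed the largest fold change of the 5 tested members. It had 1035, 1051 and 1176 CPM in CCT068127 replicates 1 to 3, and 194.4, 198.8 and 212.2 CPM in DMSO replicates 1 to 3. Both groups were tight and well separated. The log2 fold change was 2.43 ± 0.099 (edgeR adjusted p = 3.93e-08), and 6.76% of tested genes had a larger absolute fold change. IER3-AS1, which overlaps its 3′ end on the other strand, had 4, 0 and 0 counts in CCT068127 and 65, 82 and 0 counts in DMSO. Scaled for depth, these were 0.815, 0 and 0 CPM in CCT068127 and 0.157, 0.182 and 0 CPM in DMSO.

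DUSP2 (ENSG00000158050, chromosome 2, 96143166 to 96145440, minus strand), known mainly from lymphocytes, was too low for the test. It had 7, 2 and 5 counts in CCT068127 replicates 1 to 3, and 30, 26 and 1 counts in DMSO replicates 1 to 3. Because the first DMSO libraries are so deep, these counts correspond to 1.43, 1.14 and 1.18 CPM in CCT068127 and to 0.0726, 0.0576 and 0.149 CPM in DMSO. Pooled over libraries, 14 reads in CCT068127 and 57 in DMSO gave a ratio of CPM by total counts of 15.9 (exact 95% counting interval 8.18 to 28.9). Against DMSO replicate 3 alone, the only control of like depth, the ratio was 6.84 with an interval from 1.04 to 289. Both intervals cover counting error only. Without a low-count filter the log2 fold change was 3.95 (edgeR adjusted p = 8.18e-08). It was 4.19 by DESeq2, 2.56 on log2(TPM + 0.1) and 0.95 on log2(TPM + 1), so its size depends on the pseudocount. The TPM filter asks for at least 1 TPM in 3 libraries, which DUSP2 met only through CCT068127. It had 1.29, 1.07 and 1.11 TPM in CCT068127 replicates 1 to 3, and 0.09, 0.07 and 0.2 TPM in DMSO replicates 1 to 3. Without that filter the value on log2(TPM + 1) was also 0.95. The log2 count ratio of DUSP1 to DUSP2 was 9.30 ± 0.19 in CCT068127 and 11.2 ± 1.14 in DMSO (SD, n = 3 each; exact permutation p = 0.1). The difference was -1.85, and -2.50 without DMSO replicate 3, which holds 1 DUSP2 read.

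In TPM, the order of the members in CCT068127 was IER3 (1410 ± 118), DUSP1 (690 ± 71.8), ZFP36L1 (135 ± 13.3), ZFP36 (25.3 ± 4.39), ZFP36L2 (24.8 ± 1.92) and DUSP2 (1.16 ± 0.12). In DMSO it was IER3 (366 ± 19.0), DUSP1 (248 ± 65.0), ZFP36L1 (183 ± 13.0), ZFP36L2 (67.3 ± 11.9), ZFP36 (18.0 ± 1.84) and DUSP2 (0.12 ± 0.07; SD, n = 3 each). ZFP36 and ZFP36L2 in CCT068127 did not differ beyond their spread, and DUSP1 and ZFP36L1 in DMSO were separated by about the SD of DUSP1. IER3 was the 122nd most abundant gene in CCT068127 and the 377th in DMSO, by the median TPM of the group. The ratio of counts to TPM follows the effective transcript length used in the quantification once depth is removed. It was therefore divided, in each library, by its median over well-counted genes. This relative ratio was 1.01-fold higher in CCT068127 for each of ZFP36L1, ZFP36L2, DUSP1 and IER3. The central 90% of 6141 well-counted genes spanned 0.899 to 1.07, so no shift in the estimated transcript length of these 4 genes stood out.

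**Figure D3:**
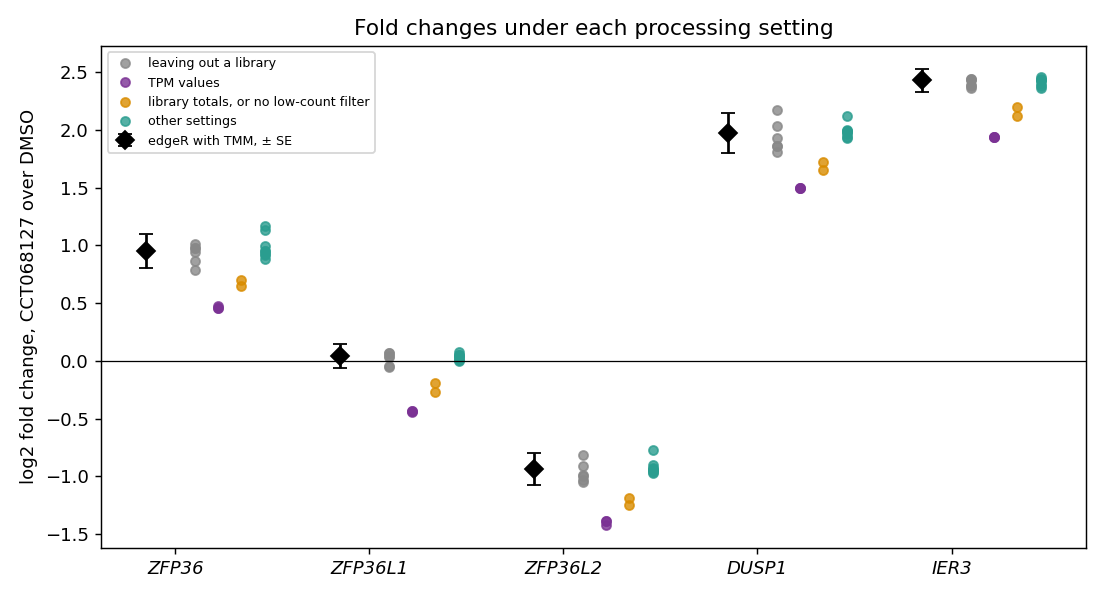
Log2 fold changes of the 5 tested genes (vertical axis) are drawn for the TMM fit (diamonds with SE) and for each other processing setting (dots). Unscaled TPM and library totals move all 5 genes downward together, and ZFP36L1 alone crosses 0.

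The shift is common to the 5 genes. The median log2 fold change of the genes tested was -0.05 with TMM, -0.36 with library totals and -0.46 on filtered log2(TPM + 1) values (14394 genes). Relative to that median, the value on TPM was 0.92 for ZFP36, 0.026 for ZFP36L1, -0.93 for ZFP36L2, 1.96 for DUSP1 and 2.40 for IER3. With library totals the same quantities were 1.01, 0.094, -0.89, 2.01 and 2.48, so the order of the genes was the same.

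Over the 6 libraries, the genes whose log2 CPM followed each member most closely were DBR1 (r = 0.998) and UBE2CP5 (0.997) for ZFP36, and GGA2 (0.962) and ATP6V1C1 (0.961) for ZFP36L1. They were ADARB1 (0.998) and HOXB9 (0.998) for ZFP36L2, RAD54L (0.999) and CHTF18 (0.999) for DUSP1, and LINC00685 and LRRC57 (both 1.00 after rounding) for IER3. All points share the same 6 libraries and mostly reflect the difference between the groups, since 1166 genes reached r of at least 0.98 with IER3, 497 with DUSP1, 79 with ZFP36L2, 75 with ZFP36 and 0 with ZFP36L1.

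Gene lists around the family are described by their counts of calls, to be read against all 13597 tested genes, of which 31.9% were called higher and 32.8% lower. With library totals those shares were 22.1% higher and 48.3% lower.

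Of 19 genes of the CCR4-NOT complex, which the family recruits, and of other deadenylation factors, 1 (5.26%) was called higher and 9 (47.4%) lower, against 31.9% and 32.8% of all tested genes. The median log2 fold change was -0.28, against -0.05 for all tested genes. CNOT1, the scaffold to which ZFP36 proteins bind, fell to 130 ± 19.8 CPM in CCT068127, against 233 ± 7.07 CPM in DMSO (log2 fold change -0.85 ± 0.12, edgeR adjusted p = 8.99e-05). TNKS1BP1 (-1.23 ± 0.12) and BTG1 (-0.90 ± 0.12), an antiproliferative partner of the deadenylases, also fell. CNOT9 was the only member called higher (0.31 ± 0.12, edgeR adjusted p = 0.0441), a call absent in 14 of 19 settings, with the sign turned in 4 of them, including library totals. With library totals the split was 0 higher and 15 lower, where 22.1% and 48.3% of all tested genes were called.

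Of 32 decapping, exosome and P-body genes, 10 (31.2%) were higher and 9 (28.1%) lower, which is near the 31.9% and 32.8% of all tested genes (median 0.11). With library totals 8 were higher and 13 lower. LSM3, a subunit of the ring that binds deadenylated tails, reached 75 ± 5.48 CPM in CCT068127 and 16.4 ± 0.55 CPM in DMSO (log2 fold change 2.19 ± 0.11, edgeR adjusted p = 9.75e-08). The ring subunits LSM7 (1.19 ± 0.12) and LSM4 (1.57 ± 0.11) rose as well. So did LSM1 (0.785 ± 0.12, edgeR adjusted p = 0.000171), LSM5 (1.28 ± 0.15, edgeR adjusted p = 3.02e-05) and LSM6 (0.77 ± 0.15, edgeR adjusted p = 0.00104). LSM2 was not called (0.052, edgeR adjusted p = 0.727). LSM3, LSM4 and LSM7 also belong to the nuclear complex that binds U6 RNA. DCP1B (-1.47 ± 0.19), a decapping cofactor, PATL1 (-0.89 ± 0.11), which links deadenylation to decapping, and the scavenger enzyme DCPS (-0.84 ± 0.15) fell.

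Of 24 other genes whose proteins act on 3′ UTRs, 10 (41.7%) were higher and 8 (33.3%) lower (median -0.0029), beside 31.9% and 32.8% of all tested genes. With library totals 6 were higher and 12 lower. ZC3H12B, called higher, passed the low-count filter (limit about 1.74 CPM) only through CCT068127. It had 2.28 to 3.55 CPM in CCT068127 and 0.597 to 0.82 CPM in DMSO. KHSRP, which like ZFP36 promotes decay of AU-rich mRNAs, rose to 462 ± 19.2 CPM in CCT068127, against 225 ± 13.6 CPM in DMSO (log2 fold change 1.04 ± 0.093, edgeR adjusted p = 4.33e-06). The RNA packaging factor YBX1 (1.55 ± 0.10) and CELF1 (1.12 ± 0.11), which binds GU-rich elements, rose. PCBP2 (-1.44 ± 0.096), a binder of C-rich RNA, TIA1 (-1.33 ± 0.22), a translational silencer that binds AU-rich mRNAs, and ZC3H12C (-0.63 ± 0.13), a paralog of the endonuclease regnase-1, fell.

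Among MAP kinases, their activators, MK2 and 14-3-3 genes, 10 of 24 (41.7%) were higher and 7 (29.2%) lower (median -0.025), beside 31.9% and 32.8% of all tested genes. With library totals 8 were higher and 13 lower, beside 22.1% and 48.3%. MAP2K6, an activating kinase of p38, fell to 3.37 ± 0.47 CPM in CCT068127, against 16.5 ± 2.75 CPM in DMSO (log2 fold change -2.22 ± 0.23, edgeR adjusted p = 1.33e-05). MAP2K4 (-1.10 ± 0.12), which activates JNK and p38, and MAP2K2 (-1.01 ± 0.14), which activates ERK, were also lower. The other activating kinase genes of the list did not all go the same way. MAP2K3 (0.78 ± 0.11, edgeR adjusted p = 0.000146) and MAP2K1 (0.67 ± 0.091, edgeR adjusted p = 9.31e-05) rose. MAP2K7 fell (-0.48 ± 0.11, edgeR adjusted p = 0.00281). MAPKAPK2, the gene of MK2, was not called (-0.18 ± 0.096, edgeR adjusted p = 0.121). The 14-3-3 genes YWHAH (1.17 ± 0.10), YWHAQ (0.87 ± 0.089) and YWHAE (0.89 ± 0.11) rose.

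Of 11 other phosphatase genes tested, most of them known to act on MAP kinases, 4 were higher and 4 lower (36.4% each, median 0.33), near the 31.9% and 32.8% of all tested genes. With library totals 3 were higher and 4 lower. DUSP6, an ERK phosphatase, fell to 40.8 ± 4.13 CPM in CCT068127, against 66.9 ± 2.94 CPM in DMSO (log2 fold change -0.73 ± 0.11, edgeR adjusted p = 0.000232), and DUSP4 (-0.60 ± 0.11) and DUSP3 (-0.73 ± 0.12) fell. The catalytic subunits of PP2A, PPP2CA (1.36 ± 0.089) and PPP2CB (0.92 ± 0.098), rose, as did DUSP14 (1.00 ± 0.19), whose call was lost in 3 settings, all on unscaled TPM (limma adjusted p from 0.0618 to 0.154).

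Of 31 transcripts known as targets of ZFP36 family proteins, 15 (48.4%) were higher and 5 (16.1%) lower (median 0.34), beside 31.9% and 32.8% of all tested genes. Calls either way made up 64.5%, the background being 64.7%. With library totals 13 were higher and 8 lower, beside 22.1% and 48.3%. On log2(TPM + 1) values 7 were higher and 8 lower (median 0.0055), beside 17.2% and 51.9% of the genes tested there. The counts thus moved with the scaling, as did the shares of all tested genes. The list median was above that of all tested genes in each of these settings. It was 0.34 against -0.05 with TMM, 0.027 against -0.36 with library totals and 0.0055 against -0.46 on log2(TPM + 1). These medians were not tested. The counts also moved with TMM when DMSO replicate 1 was left out, to 14 higher and 10 lower (median 0.33). In that setting 4464 of 14060 tested genes were called higher and 4534 lower. PLAUR, the urokinase receptor gene, reached 247 ± 10.2 CPM in CCT068127 and 30.2 ± 0.72 CPM in DMSO (log2 fold change 3.03 ± 0.098, edgeR adjusted p = 1.46e-08). E2F1 (2.80 ± 0.13), a factor of S phase entry, and PLAU (2.05 ± 0.16), which encodes urokinase, rose as well. VEGFA fell to 89.2 ± 16.7 CPM in CCT068127, against 244 ± 24.9 CPM in DMSO (-1.43 ± 0.14, edgeR adjusted p = 7.94e-06). HIF1A (-0.80 ± 0.13) and the cytokine gene IL1A (-1.09 ± 0.20) fell. The other called cytokine genes of the list are named here after their values were seen. IL6 fell (-1.78 ± 0.38, edgeR adjusted p = 0.00347). TNF (1.35 ± 0.29, edgeR adjusted p = 0.00204) and CSF2 (1.52 ± 0.40, edgeR adjusted p = 0.00645) rose at low counts, and LIF (1.39 ± 0.11, edgeR adjusted p = 1.3e-06) and IL1B (0.68 ± 0.14, edgeR adjusted p = 0.00149) rose at higher counts. CSF2 needed the CCT068127 libraries (2.28 to 5.68 CPM) to pass the low-count filter. In DMSO it went down to 1.02 CPM, under the filter limit of about 1.74 CPM. MMP1, also called higher, needed the CCT068127 libraries too (2.6 to 3.67 CPM, against 0.329 to 1.79 CPM in DMSO). LIF kept its call in all 19 settings, TNF, CSF2 and IL1B were not called on unscaled TPM, and CSF2 was not called without CCT068127 replicate 3 (1.27, edgeR adjusted p = 0.0676). The 6 chemokine genes CXCL8, CXCL1, CXCL2, CXCL3, CCL2 and CCL20 were not called, with log2 fold changes from -0.76 to 0.61 and SEs from 0.27 to 0.78. Their DMSO libraries spread widely (CXCL1 from 73.2 to 183 CPM), so the lack of a call does not show that they were unchanged.

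Of 27 other immediate early genes tested, 20 (74.1%) were higher and 4 (14.8%) lower (median 1.42), beside 31.9% and 32.8% of all tested genes. With library totals 18 were higher and 5 lower, beside 22.1% and 48.3%. EGR3, called higher, passed the low-count filter only through CCT068127 (8.15 to 18.3 CPM, against 0.397 to 0.597 CPM in DMSO). NR4A3 (0 to 0.947 CPM in CCT068127, 1.54 to 2.39 CPM in DMSO) failed it and was not tested. EGR2 (0.204 to 1.14 CPM in CCT068127, 0.299 to 0.412 CPM in DMSO) was not tested either. GADD45B, a stress sensor upstream of p38 and JNK, reached 1410 ± 61.5 CPM in CCT068127 and 54.7 ± 16.0 CPM in DMSO (log2 fold change 4.67 ± 0.20, edgeR adjusted p = 5.43e-08). FOS (4.19 ± 0.24) and the kinase gene SGK1 (2.09 ± 0.14) rose. NR4A2 (-2.28 ± 0.23), JUND (-0.88 ± 0.097) and KLF4 (-0.81 ± 0.13) fell.

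**Figure D4:**
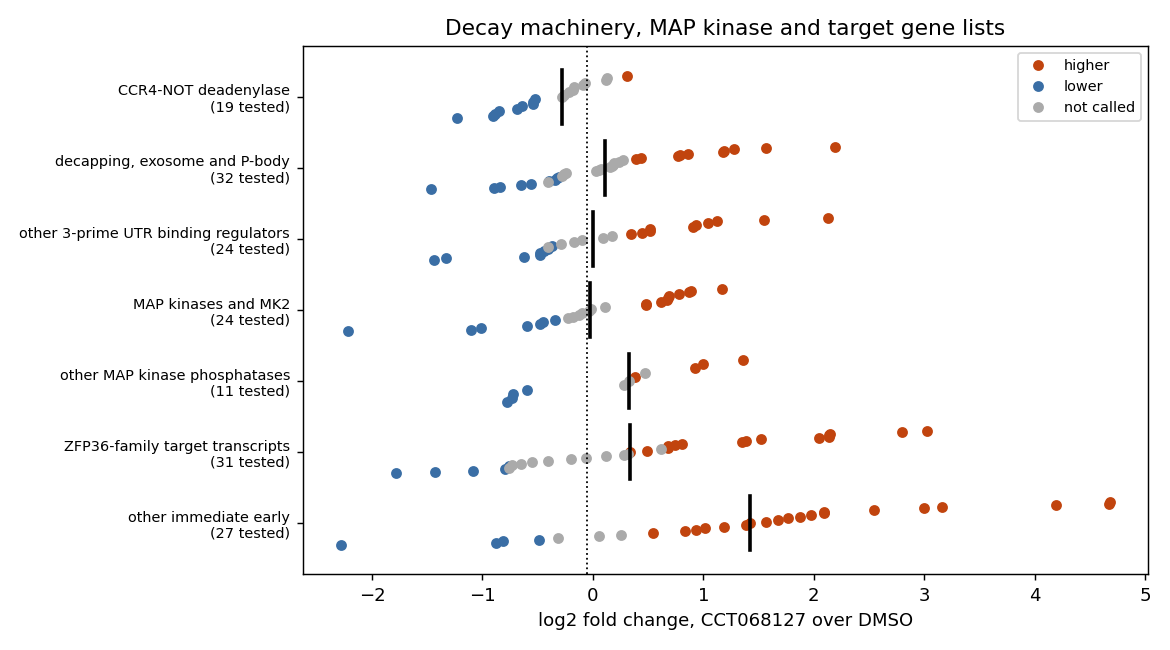
Every dot is a tested gene of 1 of the 7 lists, placed by its log2 fold change (horizontal axis) and coloured by its call; black bars are list medians and the dotted line is the median of all tested genes at -0.05. The other immediate early list has its median at 1.42 and the CCR4-NOT list at -0.28.

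The promoter windows of RefSeq (GRCh38.p14) held 4 of the 6 genes, ZFP36, ZFP36L1, DUSP1 and DUSP2. The 250 bases before each start were searched on both strands for the TATA motif TATAAA, the GC box GGGCGG, the AP-1 motif TGANTCA, the cAMP response element TGACGTCA, the EGR motif GCGGGGGCG, the CArG box and the NF-kB site. The cAMP response element was found in DUSP1 and in the downstream start of ZFP36L1, against 1.65% of 35116 promoter windows. The stretches that hold it are shown because these genes differed in response, DUSP1 being called higher and ZFP36L1 not called. Capitals mark the response element and, in DUSP1, TATAAA, which 10.7% of windows hold.
DUSP1, chr5:172771200-172771340, minus strand: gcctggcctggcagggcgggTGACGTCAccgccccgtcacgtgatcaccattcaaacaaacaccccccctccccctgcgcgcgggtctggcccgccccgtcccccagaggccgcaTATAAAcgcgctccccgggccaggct
ZFP36L1, chr14:68793441-68793488, minus strand: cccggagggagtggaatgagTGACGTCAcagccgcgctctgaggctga

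GGGCGG was found in ZFP36 (3 sites), DUSP1 (4 sites) and DUSP2 (3 sites), against 42.6% of windows. GCGGGGGCG was found once in DUSP2, overlapping a GGGCGG site, against 4.72% of windows. TGANTCA, the CArG box and the NF-kB site were not in these windows of the 4 genes, while 6.57%, 1.16% and 9.96% of all windows held them.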

How the data were processed

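Per the labels' protocols, the 6 libraries were made from poly(A)-selected RNA (NEB Ultra II) and read on an Illumina NovaSeq. The authors deposited a table of expected counts, whole numbers for each symbol, and a table of TPM. The submitters' processing notes list RSEM, Bowtie and hg38 but no version of either tool. The annotation and strand setting are not given in the sources used here. Columns were matched to samples by title, and the series' design text describes 3 independent experiments.

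The counts were filtered with filterByExpr (minimum count 10, in at least 3 libraries), which left 13597 of 38557 genes. They were scaled by TMM and tested by edgeR 4.0.16 (quasi-likelihood, robust, two-sided) in R 4.3.3. P-values were adjusted over all tested genes, with calls at 0.05. "Rose" and "fell" are used for called genes. SEs were approximated from the F statistic, and 95% intervals are 1.96 SE. Within-library ratios used counts plus 0.5. Alternatives used limma 3.58.1 and DESeq2 1.42.0. The scripts were tested on simulated data. DUSP2 failed the filter, and its fold change comes from the fit without it. Intervals and floors cover counting error only. A count of 0 allows up to 3 counts, or 0.0073 to 1.53 CPM by library.

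The 6 genes, the 7 lists and the tests were chosen with earlier results of these data known. The genes named per list were the 3 with the smallest adjusted p among those called higher and among those called lower, or fewer where fewer were called. Further list genes were named after their values were seen. For each tested member the 2 genes with the highest correlation were named. Coordinates and 3′ UTRs are from GENCODE 29 (GRCh38), using the basic transcript with the best APPRIS rank and then the greatest length. One marker gene is not reported here.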

Additional observations from a re-analysis of the deposited data

How the results depend on the processing

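DUSP1, IER3 and ZFP36L2 kept their direction and call in every setting that gave a test. ZFP36 lost its call on log2(TPM + 1) without a filter (0.46, adjusted p = 0.0545). With DMSO replicate 3 as the sole control, a setting added after the depths were known that gives no test, the log2 fold change was 1.17 for ZFP36, 2.36 for IER3, -0.77 for ZFP36L2 and 2.12 for DUSP1. ZFP36L1 turned negative with library totals (-0.27), without a low-count filter (-0.19), on filtered log2(TPM + 1) (-0.44) and unfiltered log2(TPM + 1) (-0.44), on log2(TPM + 0.1) (-0.44), without CCT068127 replicate 2 (-0.051) and without DMSO replicate 1 (-0.043). It was 0.0025 on TMM-scaled TPM. The median of all genes was itself -0.30 without a low-count filter. The cause of the turns without a library was not tested.

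Leaving out each library in turn gave log2 fold changes of 0.79 to 1.01 for ZFP36, -0.051 to 0.071 for ZFP36L1, -1.05 to -0.81 for ZFP36L2, 1.81 to 2.17 for DUSP1 and 2.36 to 2.44 for IER3. The CCR4-NOT list had 16 of 19 genes called on log2(TPM + 1) and on log2(TPM + 0.1), all lower. In these settings 7475 and 7300 of all 14394 tested genes were called lower. The target list had 13 of 32 genes called on unfiltered log2(TPM + 1), where 10423 of all 27872 tested genes were called. The DUSP1 to DUSP2 log2 ratio was -1.85 on counts and 0.55 on TPM + 1, where the pseudocount exceeds the DMSO level of DUSP2. On counts it ranged from -2.50 to -1.44 when each library was left out.

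With the replicate number as a block, 8297 genes were called, against 8793 without it, and no member changed its call (ZFP36 0.95, ZFP36L1 0.050, ZFP36L2 -0.94, DUSP1 1.99, IER3 2.43). No label says that same-numbered libraries pair, so the numbers were not treated as pairs. Same-numbered libraries showed little shared deviation from their group means (r of 0.038, -0.00046 and 0.036, with the deep DMSO libraries thinned). Counting noise weakens r at these depths, so these values cannot decide whether the libraries pair. With library totals, 3006 genes were called higher and 6567 lower, against 4333 and 4460 with TMM. The depth of the 4 shallow libraries limits DUSP2 most.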

Other observations

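Genes with and without the AU-rich heptamer had close median fold changes over the whole table. The median log2 fold change was -0.067 for the 4042 tested genes with at least 1 TATTTAT in the 3′ UTR and -0.059 for the 7922 genes with 0 copies. It was -0.014 for the 760 genes with 3 or more copies. With genes split into 4 equal bins by 3′ UTR length, those with the heptamer had a median of -0.030 and those without it 0.026 in bin 1, the shortest. Those with the heptamer had a median of 0.056 and those without it -0.068 in bin 2, while in bin 3 the medians were -0.098 with it and -0.10 without it. In bin 4, the longest, the medians were -0.088 with the heptamer and -0.18 without it. These are descriptions over genes, with no test.

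DMSO replicate 1 was the highest control for both DUSP1 (297.4 CPM, against 187.3 and 206.5 CPM in DMSO replicates 2 and 3) and ZFP36L2 (140.6 CPM, against 107.5 and 103.9 CPM), and the lowest control for ZFP36L1 (236.9 CPM, against 276.1 and 264.4 CPM).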
